A study of Mus musculus with 6 samples.

Results

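The enzymes of the tricarboxylic acid cycle were followed at the mRNA level in mouse bone marrow-derived macrophages that were left as precursors or driven towards osteoclasts. The 9 members, Cs, Idh2, Idh3a, Idh3b, Idh3g, Ogdh, Suclg1, Fh1 and Mdh2, were found by gene symbol among the 24940 genes of the expression table, and all 9 were present once and were among the 11595 genes that were tested. All 9 mRNAs were higher in RANKL-treated cells than in untreated cells, by 1.33-fold for Ogdh to 2.89-fold for Idh3a. The rise passed the test for all 9, against 23.9% of all genes tested. When the extract LE was added to RANKL, the levels of all 9 were lower than with RANKL alone. The decrease passed the test for 6 of them, against 6.86% of all genes tested. That number depended on the fit. It was 0 without the filter on low genes, 2 when only the 2 conditions compared were fitted, and above 6 under some other settings.

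Cells came from mouse bone marrow and were cultured with macrophage colony-stimulating factor (M-CSF), which keeps macrophages and their precursors alive. The 3 conditions, with 2 libraries each, were M-CSF at 30 ng/mL alone for 3 days (-R), the same with RANKL (the ligand of the receptor activator of nuclear factor kappaB), the cytokine that drives osteoclast formation, at 100 ng/mL (+R), and RANKL together with LE, an extract of the shrub Abeliophyllum distichum, at 10 μg/mL (R+LE). Every library therefore carried M-CSF, and no library had LE without RANKL. The labels name C57BL/6 mice aged 6 to 8 weeks, while the methods of the study name ICR mice, and neither says whether the 2 libraries of a condition came from separate cultures or animals, so p-values measure the spread between these libraries, which may be technical.

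The tricarboxylic acid cycle runs in the mitochondrial matrix, where acetyl groups from pyruvate, fatty acids and amino acids are oxidised to carbon dioxide and the electrons are passed to the respiratory chain as NADH and FADH2. Osteoclasts are rich in mitochondria, and respiration is known as a main source of the energy that bone resorption uses. In activated macrophages the cycle is also known as a source of signalling metabolites such as citrate, succinate and itaconate.

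The libraries held 29390175 to 34846363 mapped reads, recovered from the RPKM steps of low genes, of which 74.2% to 80.7% lay on the genes of the table. Each member rested on 1114 to 12033 reads per library, which gives a counting error (SD) of 3.00% to 0.912%. Whether the mates of a read pair were counted as 1 or separately is not given in the sources used here, and if separately, the independent fragments were fewer and this error is larger. Of 6 macrophage markers, none was at 0, and their summed level was 1602 to 1679 RPKM in -R, 875 to 1005 in +R and 834 to 1013 in R+LE. The 9 osteoclast markers summed to 43.4 to 45.0 RPKM in -R, with 2 of them at 0 in both libraries, 1894 to 2161 in +R and 340 to 393 in R+LE. Markers of stromal cells summed to at most 15.98 RPKM, those of neutrophils to 15.3 to 17.1 in -R and at most 2.525 elsewhere, and those of lymphoid, red and dendritic cells to at most 1.149 in any library. Of these sums, that of the osteoclast markers had the same order of conditions as the cycle enzymes, without overlap. The macrophage sum was lower in +R than in -R and overlapped between +R and R+LE, but its markers differed. Itgam was higher in both +R libraries than in -R, and the others were lower. With LE, Cd14 and Mertk had log2 fold changes of 0.62 and 0.52 (adjusted p = 0.0252 and 0.0461, limma). Adgre1 and Itgam were also higher in both R+LE libraries and Cd68 lower, none passing at adjusted p under 0.05, and Csf1r overlapped. The part of these cells in the results was not tested. The share of reads on genes taken by Rn45s, the ribosomal RNA precursor, was 4.97% to 6.83% in -R and 10.9% to 13.5% in the other libraries. With it left out of the depth, the members' median log2 fold change was 1.01 with RANKL and -0.59 with LE.

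Within a condition the enzymes differed widely in level, here compared as RPKM (reads scaled to transcript length and to all mapped reads). In untreated cells Mdh2, the malate dehydrogenase that closes the cycle, was highest at 130 ± 5.06 RPKM (mean ± SD, n = 2), followed by Cs, Idh3b, Fh1, Idh3g, Idh2, Suclg1, Ogdh and, lowest, Idh3a at 22.2 ± 0.863 RPKM. No neighbours in this order overlapped between libraries. In +R cells Mdh2 (251 ± 37.3 RPKM), Cs (127 ± 10.3 RPKM) and Idh3b (95.8 ± 3.09 RPKM) again led. Idh3a had moved from the lowest place to a middle one, although its libraries overlapped with those of Idh2, as did those of Idh2 and Suclg1, and Ogdh was now lowest at 33.1 ± 0.959 RPKM. In R+LE cells the order again ran from Mdh2 (152 ± 18.5 RPKM) to Ogdh (27.1 ± 0.0219 RPKM), with no separation among Idh3b, Fh1 and Idh3g or among Idh2, Idh3a and Suclg1.

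**Figure D1:**
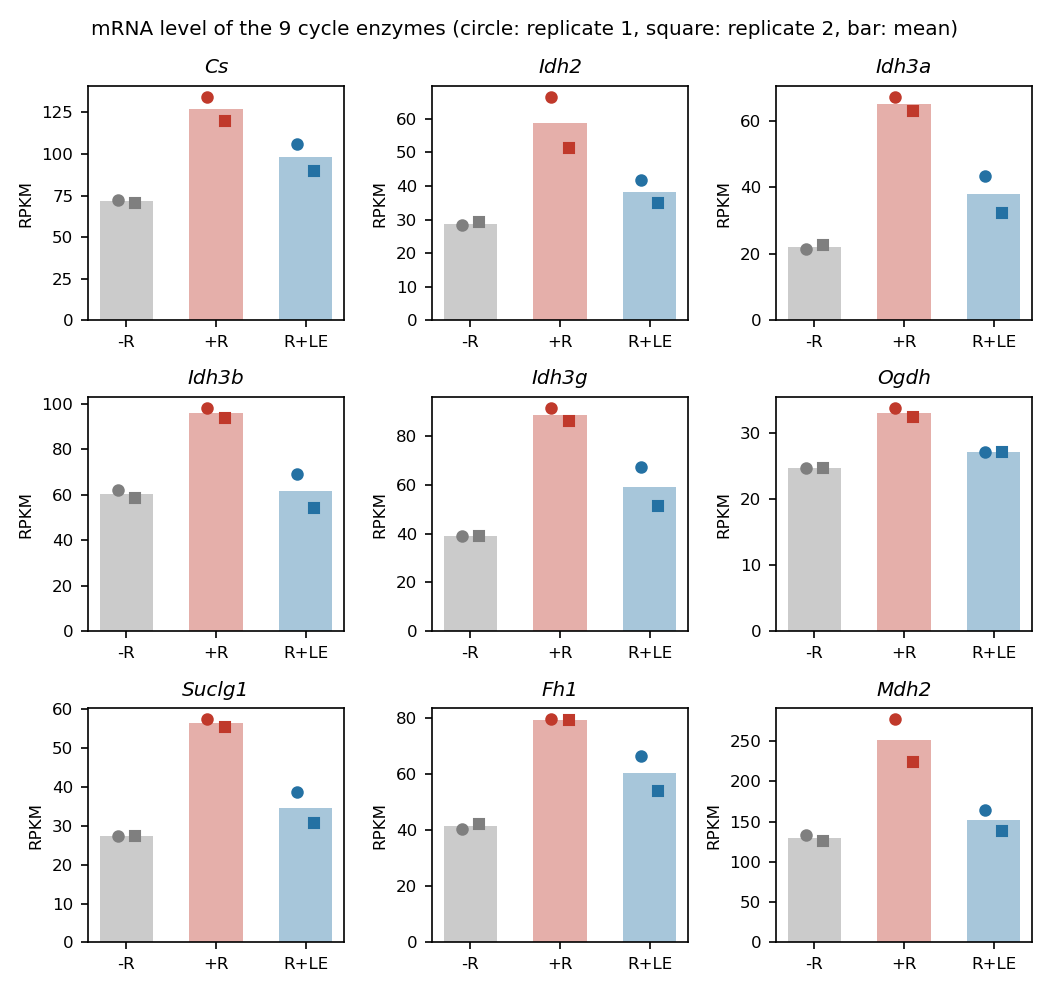
Level of each of the 9 enzymes in RPKM (y axis, from 0) in the 3 conditions (x axis), with circles for replicate 1, squares for replicate 2 and bars for the mean. In every panel both +R points lie above both -R points and above both R+LE points, and only for Idh3b do the R+LE points spread across the -R level.

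The genes lie on 9 different chromosomes, so none of them are neighbours. Coordinates are those of the deposited table, on mm10. Cs spans chr10:128337727-128362482 on the plus strand, Idh2 chr7:80094847-80115350 on the minus strand, and Idh3a chr9:54586511-54604662 on the plus strand. Idh3b lies at chr2:130279309-130284451 on the minus strand, Idh3g at chrX:73778963-73786897 on the minus strand and Ogdh at chr11:6291597-6359094 on the plus strand. Suclg1 is at chr6:73248505-73276907 on the plus strand, Fh1 at chr1:175601378-175625635 on the minus strand and Mdh2 at chr5:135778649-135790386 on the plus strand. Reads were counted on exons without regard to strand, and the only exonic overlap of a member with a gene of the other strand was 5 bp between Idh3b and Nop56.

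Promoter sequence was compared because the members moved together. RefSeq promoters (GRCm38.p6, 250 bases before to 50 bases after the start) were matched by symbol for 8 of the 9 members, without Idh3a, and 5 short motifs were searched on both strands. The CCAAT box (letters CCAAT) was present in 5 of the 8, Cs, Idh2, Idh3b, Ogdh and Fh1. Its share was 37.9% of all 27025 promoters and 39.3% of the promoters of tested genes. The core of the ETS factor site (CCGGAAG) was present in Idh3b and Idh3g, against 9.12% of all promoters and 1786 of the 8930 promoters of tested genes. The half-site of the estrogen-related receptors (AAGGTCA), the NRF1 core (GCGCATGC) and the E-box (CACGTG) were in none of the 8. Their shares were 4.66%, 2.80% and 7.24% of all promoters, and 3.1%, 5.8% and 10.7% of the promoters of tested genes. Promoters of 7 other subunits of cycle enzymes were searched too. Of these, 4 held the CCAAT box (Dld, Sdha, Sdhb and Suclg2) and 3 the ETS core (Dlst, Sdhb and Sdhd). That of Sdhd also held the half-site and that of Sdhb the NRF1 core, and none held the E-box. A match is a description of the letters and not of a bound site, and no matches overlapped each other. The stretches from 150 bases before to 30 bases after the start are shown for Cs and Mdh2, the members with the highest levels, and for Idh3b and Idh3g, subunits of one enzyme whose changes differed in size. Each reads 5′ to 3′ on the strand of the gene, with motif matches in capitals, and covers chr10:128337577-128337756 (plus) for Cs, chr5:135778499-135778678 (plus) for Mdh2, chr2:130284422-130284601 (minus) for Idh3b and chrX:73786868-73787047 (minus) for Idh3g.
Cs: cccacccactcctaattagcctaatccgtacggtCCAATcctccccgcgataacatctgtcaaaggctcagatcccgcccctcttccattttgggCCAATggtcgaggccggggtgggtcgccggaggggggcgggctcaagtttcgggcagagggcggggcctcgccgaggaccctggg
Mdh2: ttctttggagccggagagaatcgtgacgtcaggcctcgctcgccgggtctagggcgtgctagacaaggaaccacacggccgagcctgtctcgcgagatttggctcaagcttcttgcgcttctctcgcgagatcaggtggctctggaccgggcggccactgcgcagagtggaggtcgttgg
Idh3b: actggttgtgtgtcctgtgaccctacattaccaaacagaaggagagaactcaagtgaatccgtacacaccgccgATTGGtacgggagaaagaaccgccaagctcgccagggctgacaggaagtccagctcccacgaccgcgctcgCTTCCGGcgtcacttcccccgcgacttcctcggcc
Idh3g: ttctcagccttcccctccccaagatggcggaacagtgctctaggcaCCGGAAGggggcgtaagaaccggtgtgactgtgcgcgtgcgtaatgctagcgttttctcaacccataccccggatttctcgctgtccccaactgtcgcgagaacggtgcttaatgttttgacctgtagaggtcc
Cs held 2 CCAAT boxes, which began 116 and 55 bases before the start. Idh3b held a CCAAT box on the other strand from 76 bases before the start and an ETS core on the other strand from 5 bases before it. The ETS core of Idh3g began 104 bases before the start on the strand of the gene, and Mdh2 held none of the 5 motifs.

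The comparison of +R with -R asked what RANKL did to the enzymes over 3 days. All 9 rose at adjusted p under 0.05 (limma on log2 RPKM with a pseudocount of 0.5, Benjamini-Hochberg over all genes tested), where 23.9% of all tested genes rose. None fell, against 21.5% of all genes. The median log2 fold change of the members was 0.94, and that of all genes was 0.05. Libraries of the 2 conditions did not overlap for any of the 9, as for 40.3% of all genes in this direction. Of the members, 4 (Idh2, Idh3a, Idh3g and Suclg1) also rose at least 2-fold, against 6.58% of all genes. In RNA from whole cultures, fewer cells of a type and less RNA per cell cannot be told apart.

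The 3 subunits of the NAD-dependent isocitrate dehydrogenase, which makes 2-oxoglutarate from isocitrate, rose by different amounts. Idh3a, the catalytic alpha subunit, was at 21.6 and 22.8 RPKM in -R, 67.1 and 62.8 in +R, compared with 43.6 and 32.2 in R+LE. The conditions did not overlap, with R+LE in between. Its rise with RANKL was 1.53 ± 0.16 on the log2 scale (estimate ± SE, adjusted p = 1.35e-06, limma) and was the largest of the members. Idh3g, the gamma subunit, was at 39.1 and 39.2 RPKM in -R, 91.2 and 86.0 in +R, compared with 67.0 and 51.3 in R+LE. Both +R libraries were more than 2-fold above both -R libraries, and the log2 fold change was 1.17 ± 0.16 (adjusted p = 1.89e-05). Idh3b, the beta subunit, had the highest level of the 3 and was at 61.9 and 58.6 RPKM in -R, 98.0 and 93.6 in +R, compared with 69.1 and 54.4 in R+LE. Its rise was smaller, at 0.66 ± 0.15 (adjusted p = 0.00254), and its R+LE libraries lay on either side of both -R libraries.

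Idh2, the mitochondrial NADP-dependent isocitrate dehydrogenase, which also makes NADPH for the matrix, was at 28.4 and 29.2 RPKM in -R, 66.4 and 51.3 in +R, compared with 41.7 and 35.0 in R+LE. The +R libraries were the highest in spite of a wide gap between them, and the log2 fold change with RANKL was 1.01 ± 0.16 (adjusted p = 9.54e-05). Cs, the citrate synthase that joins acetyl-CoA to oxaloacetate, was at 72.6 and 70.5 RPKM in -R, 134 and 119.5 in +R, compared with 106 and 90.0 in R+LE. The 3 conditions were again separate, and Cs rose with RANKL by 0.82 ± 0.15 (adjusted p = 0.000456).

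Ogdh encodes the E1 component of the 2-oxoglutarate dehydrogenase complex, which releases carbon dioxide and makes succinyl-CoA. It was at 24.7 RPKM in both -R libraries, 33.8 and 32.5 in +R and 27.1 in both R+LE libraries. Replicates were close and the 3 conditions separate, yet the rise with RANKL, 0.41 ± 0.13 (adjusted p = 0.0191), was the smallest of the members. With any 1 of the 4 -R and +R libraries left out, Ogdh, and no other member, no longer passed. Suclg1, the alpha subunit of succinyl-CoA ligase, which makes succinate and a nucleoside triphosphate, was at 27.4 and 27.3 RPKM in -R, 57.5 and 55.3 in +R, compared with 38.6 and 30.8 in R+LE. The +R libraries stood well clear of the rest, and the log2 fold change with RANKL was 1.03 ± 0.15 (adjusted p = 3.89e-05).

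Fh1, the fumarate hydratase that makes malate, was at 40.4 and 42.3 RPKM in -R, 79.6 and 79.2 in +R, compared with 66.5 and 54.0 in R+LE. The R+LE libraries fell between the other conditions without overlap, and the rise with RANKL was 0.93 ± 0.15 (adjusted p = 0.00011). Mdh2, which turns malate into oxaloacetate, was at 133 and 126 RPKM in -R, 277 and 225 in +R, compared with 165 and 139 in R+LE. Its order of conditions was the same, and the log2 fold change with RANKL was 0.94 ± 0.17 (adjusted p = 0.000295).

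The comparison of R+LE with +R asked what the extract did in the presence of RANKL. In all, 6 members fell at adjusted p under 0.05, against 6.86% of all genes, and none rose, against 5.19%. Their log2 fold changes were -0.78 ± 0.16 for Idh3a (adjusted p = 0.0036), -0.72 ± 0.17 for Mdh2 (0.00989), -0.70 ± 0.15 for Suclg1 (0.00491), -0.64 ± 0.15 for Idh3b (0.0124), -0.61 ± 0.16 for Idh2 (0.0197) and -0.59 ± 0.16 for Idh3g (0.0205). These are the isocitrate dehydrogenases of the mitochondrion, the alpha subunit of succinyl-CoA ligase and the malate dehydrogenase. The other 3 did not pass. For Fh1 the difference was -0.40, with a 95% interval of -0.72 to -0.08 and an adjusted p of 0.103, and for Cs it was -0.37, with an interval of -0.70 to -0.05 and an adjusted p of 0.147. The difference of Ogdh, -0.28, had an interval from -0.57 to 0.00 and an adjusted p of 0.216.

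All 9 members had both R+LE libraries below both +R libraries, as did 29.5% of all genes. None fell at least 2-fold, against 1.78% of all genes, and the median log2 fold change was -0.61, beside -0.05 for all genes. The number that passed depended on the libraries and on the genes tested: it was 2 (Idh3a and Suclg1) when only +R and R+LE were fitted, or without either -R library, or without the first +R library, 4 without the second R+LE library and 0 in limma without the filter on low genes, where all 9 had an unadjusted p under 0.05. It was 8 after quantile normalization, with voom on recovered reads and without the first R+LE library. Idh3a and Suclg1 passed whichever single library was left out.

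**Figure D2:**
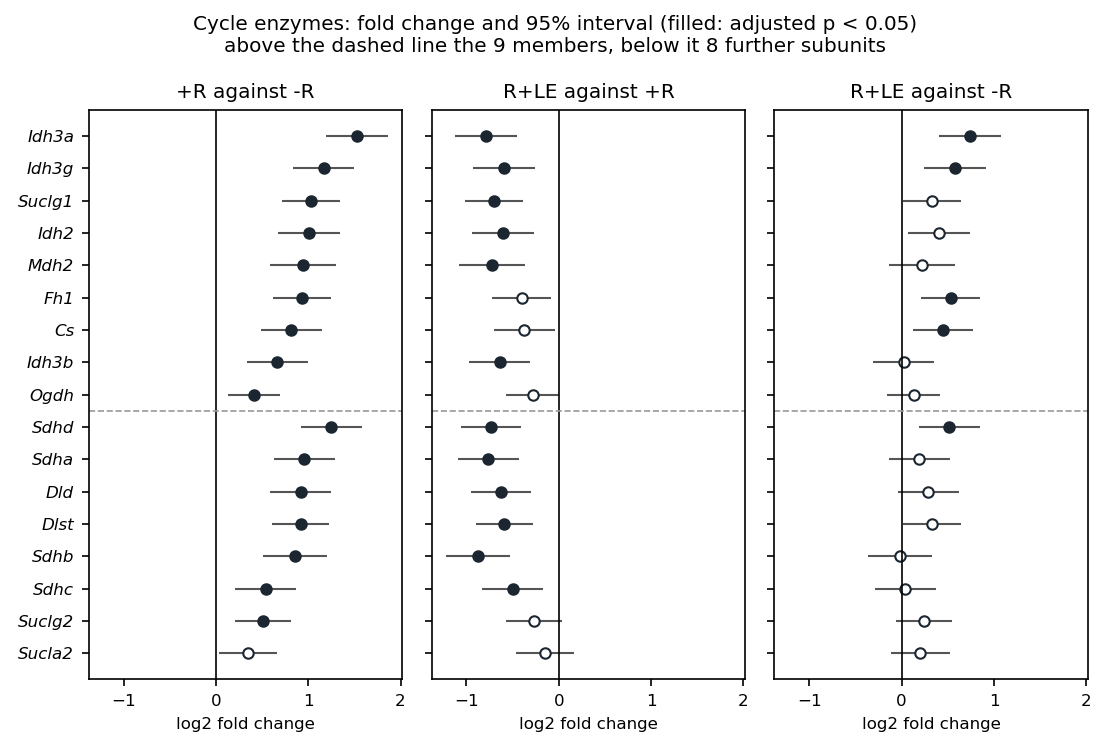
Log2 fold change (x axis) with its 95% interval for the 9 members (above the dashed line) and 8 further subunits of cycle enzymes (below it) in the 3 comparisons, with filled points where adjusted p was under 0.05 in limma. All 17 points lie right of 0 in +R against -R and left of 0 in R+LE against +R, while in R+LE against -R most intervals of the lower group cross 0.

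The gap between the 2 libraries of a condition was, in the median over the members, widest in R+LE, although those of Idh2, Mdh2 and Ogdh were wider in +R. Replicate 1 was above replicate 2 for all 9 members in R+LE, by a median of 23.2%, and the median log2 difference was 0.30, beside 0.13 for all genes. In +R, replicate 1 was also above replicate 2 for all 9, by a median of 6.06%, and in -R for 5 of the 9. The second R+LE library had the lowest share of reads on genes of all libraries, 74.2%, and the part of this in its lower levels was not tested. Without it the median log2 fold change of the members with LE was -0.47, and without the first R+LE library it was -0.78.

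The comparison of R+LE with -R asked how far cells given both agents were from untreated cells. It shares its libraries with the other comparisons and is not independent of them. In all, 4 members (Cs, Idh3a, Idh3g and Fh1) rose, against 15.3% of all genes, and none fell, against 19.0%. None rose at least 2-fold, against 3.92% of all genes, and for 8 of the 9 the libraries did not overlap in this direction, against 31.2%. Idh3a was 0.74 ± 0.16 above -R on the log2 scale (adjusted p = 0.00181), Idh3g 0.58 ± 0.16 (0.00967), Fh1 0.53 ± 0.15 (0.0122) and Cs 0.45 ± 0.15 (0.0346). The difference of Idh2 was 0.40 (adjusted p = 0.0631), that of Suclg1 0.33 (0.1), that of Mdh2 0.22 (0.329) and that of Ogdh 0.13 (0.482). For Idh3b the difference was 0.02, with a 95% interval of -0.31 to 0.36 and an adjusted p of 0.92. Without either -R library only Idh3a passed, without the second R+LE library 6 members did, and after quantile normalization 7 did. Cs passed in 1 of the 6 fits that left out a library, the one without the second R+LE library.

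In mean RPKM, all 9 members in R+LE lay between -R and +R. Expressed as the part of the difference between +R and -R that was still present in R+LE, the level was 56.9% for Fh1, 54.6% for Cs, 49.4% for Idh3g and 48.7% for Idh3a. For Idh2 it was 39.8%, which was the median, for Suclg1 31.9% and for Ogdh 31.6%. The smallest parts were those of Mdh2, 23.7%, and Idh3b, 3.76%. These shares describe 3 log2 means that use the same libraries, and their differences were not tested.

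Subunits of one enzyme did not keep a constant ratio. Since both levels come from the same library, a ratio does not depend on its depth, but an exact two-sided permutation test of 2 libraries against 2 cannot give a p below 0.333, so ratios are given as values. The ratio of Idh3a to Idh3b was 0.348 and 0.389 in -R, 0.685 and 0.671 in +R, compared with 0.630 and 0.593 in R+LE. The alpha subunit was thus closer to the beta subunit in both RANKL conditions, and the R+LE libraries lay below +R and above -R. The ratio of Idh3g to Idh3b was 0.632 and 0.668 in -R, 0.931 and 0.919 in +R, compared with 0.969 and 0.944 in R+LE. Here both RANKL conditions were well above -R. The R+LE libraries were the highest, but lay close to +R, with 0.944 in R+LE beside 0.931 in +R. Whether a gap of this size exceeds counting error was not tested.

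For succinyl-CoA ligase, Suclg1 can pair with the ADP-forming beta subunit Sucla2 or the GDP-forming beta subunit Suclg2. The ratio of Suclg1 to Sucla2 was 1.06 and 1.08 in -R, 1.64 and 1.80 in +R, compared with 1.17 and 1.16 in R+LE. The ratio to Suclg2 was 2.61 and 2.64 in -R, 3.70 and 3.78 in +R, compared with 2.80 and 2.74 in R+LE, so in both pairs the R+LE libraries lay nearer to -R. In the 2-oxoglutarate dehydrogenase complex, the ratio of Ogdh to its partner Dlst went the other way, at 0.739 and 0.735 in -R, 0.481 and 0.560 in +R, compared with 0.628 and 0.656 in R+LE. The ratio to its other partner Dld was 0.638 and 0.583 in -R and 0.421 and 0.439 in +R. In R+LE it was 0.486 and 0.613, which overlapped with -R.

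Levels were also compared between mitochondrion and cytosol. The ratio of mitochondrial Idh2 to its cytosolic counterpart Idh1 was 0.614 and 0.547 in -R, 1.02 and 1.07 in +R, compared with 0.551 and 0.546 in R+LE. Both +R libraries were above the rest, and R+LE overlapped with -R. Idh1 itself was at 46.2 and 53.4 RPKM in -R, 64.8 and 47.8 in +R, compared with 75.6 and 64.1 in R+LE. Both genes were thus higher in R+LE than in -R, Idh1 by 0.48 on the log2 scale (adjusted p = 0.0389, limma) and Idh2 by 0.40 (0.0631). The ratio of Mdh2 to cytosolic Mdh1 was 3.21 and 2.98 in -R, 2.53 and 2.46 in +R, compared with 2.65 and 2.68 in R+LE. It was lower in both RANKL conditions than in -R, and Mdh1 itself rose with RANKL by 1.25 ± 0.15 (adjusted p = 9.1e-06).

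**Figure D3:**
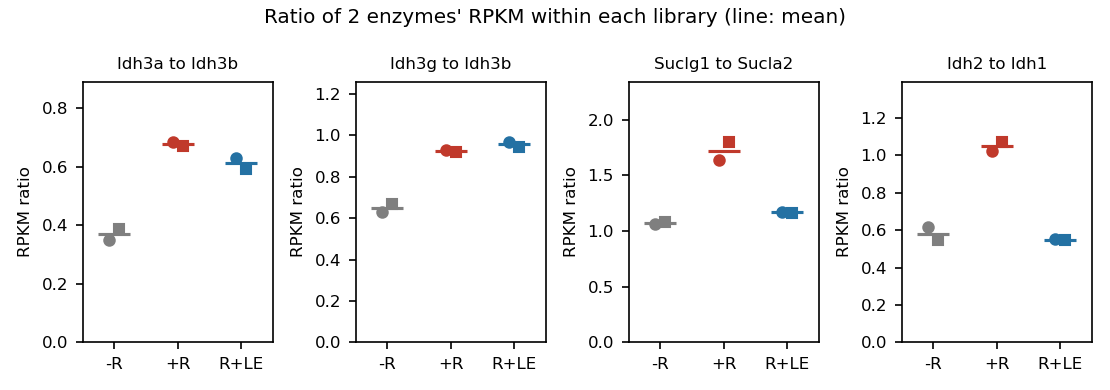
Ratio of the RPKM of one gene to that of another in each library (y axis, from 0) for 4 pairs in the 3 conditions (x axis), with circles for replicate 1, squares for replicate 2 and lines for the mean. Idh3a to Idh3b and Idh3g to Idh3b lie well above -R in R+LE, at 0.593 to 0.630 and 0.944 to 0.969, whereas Suclg1 to Sucla2 and Idh2 to Idh1 lie near the -R values.

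A further 8 subunits of cycle enzymes moved in the same directions. With RANKL 7 rose and none fell, against 23.9% and 21.5% of all genes tested, with a median of 0.89. Sdhd, a membrane anchor of succinate dehydrogenase, rose by 1.25 ± 0.15 (adjusted p = 8.05e-06), from 49.7 and 52.7 RPKM in -R to 135 and 112 in +R. Sdha and Sdhb, the flavoprotein and iron-sulfur subunits of succinate dehydrogenase, rose by 0.96 and 0.85, and the anchor Sdhc by 0.54. Dld and Dlst, the E3 and E2 components of the 2-oxoglutarate dehydrogenase complex, both rose by 0.92, and Suclg2 by 0.51. Sucla2 did not pass, with 25.9 and 25.4 RPKM in -R, 35.0 and 30.7 in +R and a difference of 0.35 (adjusted p = 0.0687).

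With LE 6 of these 8 fell and none rose, against 6.86% and 5.19% of all genes tested, with a median of -0.61. The largest decrease was that of Sdhb, from 146 and 156 RPKM in +R to 94.6 and 71.4 in R+LE (-0.88 ± 0.16, adjusted p = 0.00212). Sdha fell by 0.76, Sdhd by 0.73, Dld by 0.63, Dlst by 0.59 and Sdhc by 0.50. The differences of Suclg2, -0.26 (adjusted p = 0.289), and Sucla2, -0.15 (0.648), did not pass. Only Sdhd passed the test in R+LE against -R, with a difference of 0.52 ± 0.15 (adjusted p = 0.0164), and for Sdhb the difference was -0.02 (0.939).

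Pyruvate enters the matrix through the carrier Mpc1 and Mpc2 and reaches the cycle through pyruvate dehydrogenase or pyruvate carboxylase. Of 14 genes of this step 13 were tested. With RANKL 11 rose and none fell, against 23.9% and 21.5% of all genes tested, with a median of 0.78. Pdhb and Pdha1, the E1 subunits of pyruvate dehydrogenase, rose by 1.40 and 1.27, its E2 component Dlat by 0.99, the carrier subunits Mpc2 and Mpc1 by 0.70 and 0.66, the phosphatase catalytic subunit Pdp2 by 0.72 and the phosphatase regulator Pdpr by 1.24. The inhibitory kinases Pdk1 and Pdk3 rose too, by 1.55 and 0.78. Pcx, pyruvate carboxylase, rose by 1.23 from a low level of 0.619 and 0.675 RPKM. At such a level the pseudocount of 0.5 RPKM understates the fold change, so its size is not comparable with those of the other genes.

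With LE 6 of the 13 fell and none rose, against 6.86% and 5.19% of all genes tested, with a median of -0.52. Pdha1 fell by 0.86, Pdhb by 0.76, Dlat by 0.70, Mpc2 by 0.61 and Pdpr by 0.58. Pdk1 was at 2.92 and 3.20 RPKM in -R, 11.3 and 8.68 in +R, compared with 7.77 and 7.09 in R+LE. Its difference with LE, -0.39, did not pass (adjusted p = 0.123), and it was 1.16 ± 0.15 above -R in R+LE (adjusted p = 2.76e-05). Pcx differed by 0.03 between R+LE and +R (adjusted p = 0.96) and by 1.25 between R+LE and -R (adjusted p = 0.000123).

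The respiratory chain, which takes the electrons of the cycle, was compared through 40 nuclear-encoded subunits. With RANKL 37 rose and none fell, with a median of 0.78, from 0.35 for Ndufa2 to 1.32 for Uqcrfs1. With LE 19 fell and none rose, with a median of -0.54, and Cyc1 had the lowest value at -0.93. Of 20 genes of mitochondrial import, proteostasis and DNA upkeep, 17 rose with RANKL, led by the chaperonin Hspd1 at 1.46, whereas Polg had a value of -0.19, and with LE 3 fell, led by the import channel Tomm40 at -0.70. Over all genes tested, 23.9% rose and 21.5% fell with RANKL, and 5.19% rose and 6.86% fell with LE. These lists and the members had medians of one sign in each comparison, and their sizes were not compared by a test.

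**Figure D4:**
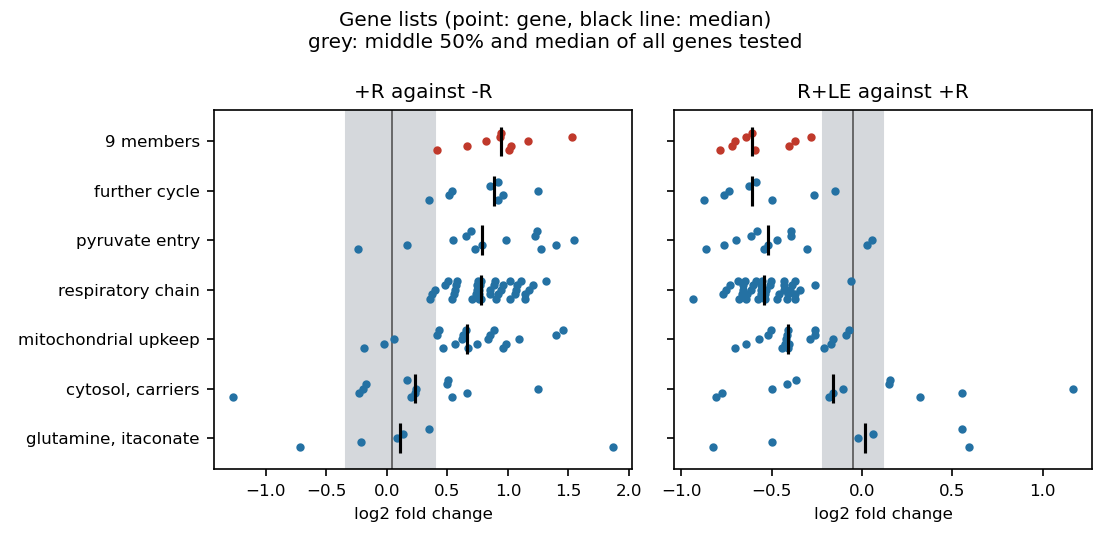
Log2 fold change (x axis) of each gene of 7 lists around the cycle for RANKL (left panel) and LE (right panel), with a black line at each list's median and a grey band over the middle 50% of all genes tested. The members (red) have medians of 0.94 and -0.61, outside the band. The medians of the further cycle, pyruvate entry, respiratory chain and mitochondrial upkeep lists are outside it too, in both panels. Those of the cytosolic and glutamine lists lie within it.

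The members resembled each other across the 6 libraries, with Pearson's r between log2 levels of 0.84 to 0.999 over the 36 pairs and a median of 0.96. The lowest was that of Idh3b and Fh1 and the highest that of Idh3a and Idh3g. These points share the 3 conditions and the library depth, so a high r mostly repeats the order of the conditions. Among the 11586 other genes tested, the 5 most like the members' mean scaled profile were Atp5b (r = 0.9998), Uqcrc2, Csrnp1, Map2k6 and Tprn, and 626 had r above 0.95. Atp5b, the catalytic beta subunit of ATP synthase, was at 309 and 309.7 RPKM in -R, 685 and 611 in +R, compared with 458 and 366 in R+LE. Uqcrc2, a core subunit of respiratory complex III, was at 45.3 and 44.6 RPKM in -R, 112 and 97.1 in +R, compared with 70.5 and 53.9 in R+LE. Csrnp1, a nuclear protein, Map2k6, a kinase of the p38 pathway, and Tprn had lower levels, at most 8.20 RPKM.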

How the data were processed

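The 6 libraries took their condition and replicate number from the sample labels. The authors aligned paired-end reads to mm10, with TopHat per the methods of the study and HISAT2 per the submitters' processing notes, and HOMER counted reads on the exons of 1 transcript per gene on either strand. The deposited values are called RPKM by the authors' methods and FPKM by the column titles, so a recovered read may be a single read or a read pair. Tool versions were not given in the sources used here. Of the symbols, 26 had become dates in a spreadsheet and all 26 were restored from transcript identifiers.

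Values were tested as log2(RPKM + 0.5) for genes averaging 0.5 RPKM or more over all libraries, so fold changes of low genes are understated. limma 3.58.1 in R 4.3.3 fitted the 3 conditions in one model (empirical Bayes, trended variance), followed by Benjamini-Hochberg adjustment over 11595 genes. A gene rose or fell where adjusted p was under 0.05. Fold thresholds of 2 are said where used. Reads were recovered from the steps of low RPKM values, and 100% of the values checked were whole within 0.1. Depth limits cover counting error only. For a 1 kb transcript, 3 reads are 0.0861 to 0.102 RPKM. Tables and figures were made in Python 3.11.15. The fit was also run on simulated data with the same extra spread between libraries for all genes. That spread was not matched to the gaps between these libraries, so the run does not test the p-values given here.

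The members and lists were chosen with earlier results of these data known. The named genes were the 9 members, 8 further cycle subunits, genes of the pyruvate, cytosolic and glutamine lists that passed with at least a 1.5-fold change in 1 comparison, the extremes of the respiratory and upkeep lists, and the 5 genes most like the members. Some genes are not reported here and were left out of the lists. Idh1, Nop56, Rn45s and the single macrophage markers were named after their values were seen, for a ratio, an overlap, the depth and the split within a sum. The alternatives were other pseudocounts, filters, scalings, a fit without the trend, a fit of 2 conditions, a replicate block, voom on recovered reads and leaving out each library.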

Additional observations from a re-analysis of the deposited data

How the results depend on the processing

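Under 17 alternatives, 6 of which left out 1 library, all 9 members stayed higher with RANKL and lower with LE. The rise with RANKL passed for 9 members under the 11 other alternatives and for 8 to 9 with 1 library left out, when the median log2 fold change was 0.82 to 1.06. The number that fell with LE, 6, was 0 without the filter, where 18427 genes were tested and all 9 had an unadjusted p under 0.05 in limma, and 2 when only +R and R+LE were fitted. Over all genes tested, 795 fell with LE in the main fit, 340 without the filter and 586 when only +R and R+LE were fitted. This was 1025 with voom on recovered reads and 827 after quantile normalization. With the filter, the number of members that fell was 8 with voom on recovered reads and 8 after quantile normalization. With 1 library left out it was 2 to 8, and the median was -0.78 to -0.47. The number above -R in R+LE, 4, was 7 after quantile normalization and 1 to 6 with 1 library left out, when the median was 0.28 to 0.53. Over all genes tested, 1773 rose in R+LE against -R in the main fit and 2531 after quantile normalization. Idh3b in R+LE against -R turned to -0.01 without the second -R library and to -0.15 without the first R+LE library, against 0.20 without the second. The settings changed the genes, libraries or scale of the fit, and beyond that the cause was not tested. A left-out library leaves its condition with 1, which is assumed to vary like the others.

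With the replicate number as a block, 9, 6 and 5 members passed in the 3 comparisons, Idh2 being the one added. The numbers name replicates and were not taken as pairs, since deviations of libraries with the same number correlated at -0.05, 0.11 and 0.25 between conditions. Of 297 values of single genes under the 11 other alternatives, 271 kept direction and side of the threshold, 12 lost it and 14 gained it. Depth gave a counting error of at most 3.00% if each recovered read is independent, while the 2 R+LE libraries differed by a median of 23.2%.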

Other observations

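Enzymes and carriers that link the cycle to the cytosol did not move in one direction. Of 13 genes for cytosolic counterparts, export of citrate and malate and shuttles of reducing equivalents, 5 rose and 1 fell with RANKL. Their median was 0.24, and of all genes tested 23.9% rose and 21.5% fell. With LE, 2 of the 13 rose and 3 fell, with a median of -0.16, against 5.19% and 6.86% of all genes tested. Me1, the cytosolic malic enzyme that makes NADPH, was at 11.7 and 11.9 RPKM in -R, 4.85 and 4.39 in +R, compared with 11.7 and 10.3 in R+LE. Its conditions ran opposite to those of the cycle enzymes, with a log2 fold change of -1.27 ± 0.14 with RANKL (adjusted p = 2.33e-06, limma) and 1.17 ± 0.14 with LE (adjusted p = 3.94e-05), and R+LE differed from -R by -0.10 (adjusted p = 0.624). Mdh1, the cytosolic malate dehydrogenase, rose with RANKL by 1.25 and fell with LE by 0.81. Got1, the cytosolic aspartate aminotransferase, was at 25.3 and 28.9 RPKM in -R, 24.7 and 23.2 in +R, compared with 15.6 and 12.2 in R+LE, and fell with LE by 0.78 ± 0.15 (adjusted p = 0.00281). Got2, its mitochondrial counterpart, rose with RANKL by 0.54 ± 0.15 (adjusted p = 0.01), differed by 0.15 with LE (adjusted p = 0.648) and stood 0.69 above -R in R+LE. Slc25a11, the carrier of malate and 2-oxoglutarate, rose with RANKL by 0.66.

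Of 8 genes of glutamine use and itaconate, 6 were tested. With RANKL 1 rose and 1 fell, against 23.9% and 21.5% of all genes tested, so these counts are not above the general shares. With LE 2 fell, against 6.86% of all genes tested. Slc1a5, a plasma membrane glutamine transporter, was at 13.4 and 13.3 RPKM in -R, 49.99 and 50.2 in +R, compared with 27.3 and 29.0 in R+LE. The 3 conditions were separate, with a log2 fold change of 1.87 ± 0.13 with RANKL (adjusted p = 2.37e-08) and -0.82 ± 0.13 with LE (adjusted p = 0.000713). Acod1, the enzyme that makes itaconate, was at 1.85 and 1.36 RPKM in -R, 0.896 and 0.656 in +R, compared with 1.11 and 1.78 in R+LE. It fell with RANKL by 0.72 ± 0.22 (adjusted p = 0.0147, limma), a size that the pseudocount of 0.5 RPKM understates at this low level.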
